A study of Mus musculus with 6 samples.

Results

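The mouse gene catalogue gives many pseudogenes the name of the gene they resemble followed by -ps and a number, and in the medial prefrontal cortex (mPFC) 106 genes with such names had a summed count of at least 30 over the 6 libraries, out of 451 with such names among 31763 genes counted. The members were chosen by their name and selected on the summed count, so that their being counted at all is not a result. The reference annotation (GENCODE, GRCm38, the same build as mm10) went against the name for 5 of them. Tes3-ps and Mindy4b-ps are annotated as protein-coding, Tmem250-ps and Ndufb1-ps as long non-coding RNAs and Selenok-ps1 as a processed transcript, whereas the other 101 are annotated as pseudogenes of several kinds. Of all 106, 65 are processed pseudogenes and 8 are processed pseudogenes with evidence of transcription, 11 are unprocessed and 11 unprocessed with such evidence, and 3 each are unitary and polymorphic.

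A pseudogene is a genomic copy of a gene that has lost the ability to make the gene's protein. Processed pseudogenes arose when a spliced messenger RNA was copied back into DNA and inserted elsewhere, so they lack introns and usually the parent's promoter, and genes with abundant messenger RNA in the germ line, such as those of ribosomal proteins, have left many such copies. Unprocessed pseudogenes are decayed duplications that keep exons and introns, and unitary pseudogenes are genes that decayed with no working copy left. Some pseudogenes are transcribed, and short reads from them and from the parent can be told apart only where the sequences differ.

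RNA came from the mPFC, which is known to be needed for drug-associated memory, of male C57BL/6J mice aged 8 to 10 weeks after conditioned place preference (CPP) training and a drug-free period. The controls received saline (10 ml/kg) and the other group morphine (10 mg/kg, by intraperitoneal injection), with 3 libraries each, and the tissue was taken after a last preference test that both groups went through. No source used here says whether a library came from 1 mouse or from pooled tissue. The p-values set the difference between groups against the variation between libraries, which may not be that between single mice. The libraries were made from RNA depleted of ribosomal RNA and kept the strand, but neither the strand setting of the counting nor the treatment of reads that match several loci is given.

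Total counts ranged from 17984153 to 23529592 per library, and the 106 members together took between 0.0285% and 0.0316% of them. Mitochondrial genes took 0.670% to 0.787% of counts in saline and 0.718% to 0.857% in morphine. In saline library 1, 19 of 23 olfactory bulb markers lay at over 2 times their highest level in any other library, and the summed level of the list was 2073 CPM (counts scaled to library size) there against 1011 to 1078 in the other 5 libraries. That list was written after this library had been seen to stand apart. Of the members' log2 fold changes given below, those that it moved by over 1.5 times are given with and without it. Other members moved as much, such as Tes3-ps from 0.03 with it to -0.42 without it.

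The 120-base stretches below show how close the members are to their parents, which decides where reads can be assigned to one or the other. Each is the part of the annotated pseudogene, on its own strand, that faces the parent's coding sequence with the most differing bases in any ungapped 120-base window, with differing bases in capitals. Rpl31-ps8 (chr15:90764537-90764656, minus strand) derives from Rpl31, a protein of the large ribosomal subunit, and shows the case of no difference, so that 1 line stands for both. Rpl30-ps9 (chrX:105278862-105278981, minus strand) and Rps15a-ps6 (chr11:6172873-6172992, minus strand) derive from genes of the large and small ribosomal subunits and differ at 1 and 3 bases of the window. Mageb16-ps1 (chrX:144556028-144556147, minus strand) copies a gene of the MAGE family, which is known mainly from testis, and differs at 7. Zcchc9-ps (chr2:141127316-141127435, plus strand), a copy of a zinc-knuckle protein gene, differs at 23, and Wdr46-ps (chr5:3989270-3989389, plus strand), a copy of a WD-repeat protein gene of the nucleolus, at 37.
Rpl31-ps8 and Rpl31: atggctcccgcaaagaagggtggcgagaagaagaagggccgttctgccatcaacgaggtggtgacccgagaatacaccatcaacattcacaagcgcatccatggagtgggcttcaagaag
Rpl30-ps9: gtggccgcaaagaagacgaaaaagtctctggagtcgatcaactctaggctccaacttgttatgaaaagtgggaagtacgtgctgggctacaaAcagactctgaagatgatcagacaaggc
Rpl30: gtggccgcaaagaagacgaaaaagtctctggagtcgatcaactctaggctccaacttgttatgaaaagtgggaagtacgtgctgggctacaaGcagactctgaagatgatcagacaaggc
Rps15a-ps6: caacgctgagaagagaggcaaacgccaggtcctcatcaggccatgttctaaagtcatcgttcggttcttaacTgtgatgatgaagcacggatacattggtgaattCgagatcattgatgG
Rps15a: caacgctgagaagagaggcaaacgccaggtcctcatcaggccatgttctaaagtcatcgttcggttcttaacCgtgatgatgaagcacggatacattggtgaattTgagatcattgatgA
Mageb16-ps1: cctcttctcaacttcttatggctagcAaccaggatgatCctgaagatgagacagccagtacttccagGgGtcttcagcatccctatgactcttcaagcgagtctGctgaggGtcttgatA
Mageb16: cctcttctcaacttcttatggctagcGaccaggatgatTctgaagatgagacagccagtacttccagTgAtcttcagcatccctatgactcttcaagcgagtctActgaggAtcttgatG
Zcchc9-ps: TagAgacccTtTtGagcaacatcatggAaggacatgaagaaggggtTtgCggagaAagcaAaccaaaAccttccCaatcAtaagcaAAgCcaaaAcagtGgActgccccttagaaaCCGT
Zcchc9: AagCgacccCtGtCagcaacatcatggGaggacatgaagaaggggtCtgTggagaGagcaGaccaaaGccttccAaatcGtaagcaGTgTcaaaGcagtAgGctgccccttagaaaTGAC
Wdr46-ps: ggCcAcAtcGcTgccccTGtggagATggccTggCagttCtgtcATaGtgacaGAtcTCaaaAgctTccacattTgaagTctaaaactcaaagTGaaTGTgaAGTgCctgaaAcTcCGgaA
Wdr46: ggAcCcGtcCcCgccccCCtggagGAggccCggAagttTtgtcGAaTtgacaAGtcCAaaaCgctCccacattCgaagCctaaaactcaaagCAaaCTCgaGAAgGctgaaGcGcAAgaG

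Most members were close copies. The gene named before -ps was counted for 74 members, and 73 of these aligned to a transcript of it, with an identity of 64.7% to 100% and a median of 98.1%. The longest run of identical bases shared with that parent had a median of 171 bases and reached 1122. Compared with all protein-coding transcripts, 98 members had a match, and 51 of the 106 shared an identical run of at least 150 bases with 1, the length of a single read in this study. For 8 members the whole annotated transcript was identical to part of a protein-coding one. They are Rpl31-ps8, Tpt1-ps3, Ube2n-ps1, Ptges3-ps, Rps16-ps2, Pgam1-ps2, Rpl10a-ps1 and Dynlt1-ps1, the last of which matched Dynlt1c, a dynein light chain gene. The counts of these 8 cannot be separated from their parents' by sequence within the annotated transcript.

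The names were not always those of the closest gene. Of the 74 members with a counted parent, 69 had that parent as the best protein-coding match in their own orientation. Rps12-ps26 matched Rps12 and Rps12-ps3, annotated as protein-coding, equally well, and C4bp-ps1 had no match. Nlrp5-ps aligned to Vmn1r177 over more bases than to Nlrp5. Gstm2-ps1, named for a glutathione S-transferase, was 97.9% identical to Gstm1 and 85.6% identical to Gstm2. Rpl13-ps1 aligned to Rpl13 at 92.2% in the reverse orientation, so that its annotated strand is that of its host gene and opposite to the copied message.

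A large share of the counted processed pseudogenes lay inside another gene's intron, on that gene's strand. Of the 73 processed members, 31 (42.5%) lay in an intron of a protein-coding gene on the same strand and 8 (11%) in one on the opposite strand. Among the 238 processed -ps genes of the same table with a summed count under 30, 5.46% lay in a same-strand intron and 18.9% in an opposite-strand one. Among 369 processed -ps genes of the annotation outside the counted set, the shares were 5.15% and 7.86%. The pattern was not particular to the -ps names, since 54.2% of 673 other processed pseudogenes with a summed count of at least 30 and 7.43% of 2880 with fewer lay in a same-strand intron. The summed count is part of the rule that chose the members, so these shares are a description with no test. Reads from unspliced RNA of a host gene fall on the same strand as such a copy, and their part in these counts was not tested.

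**Figure D1:**
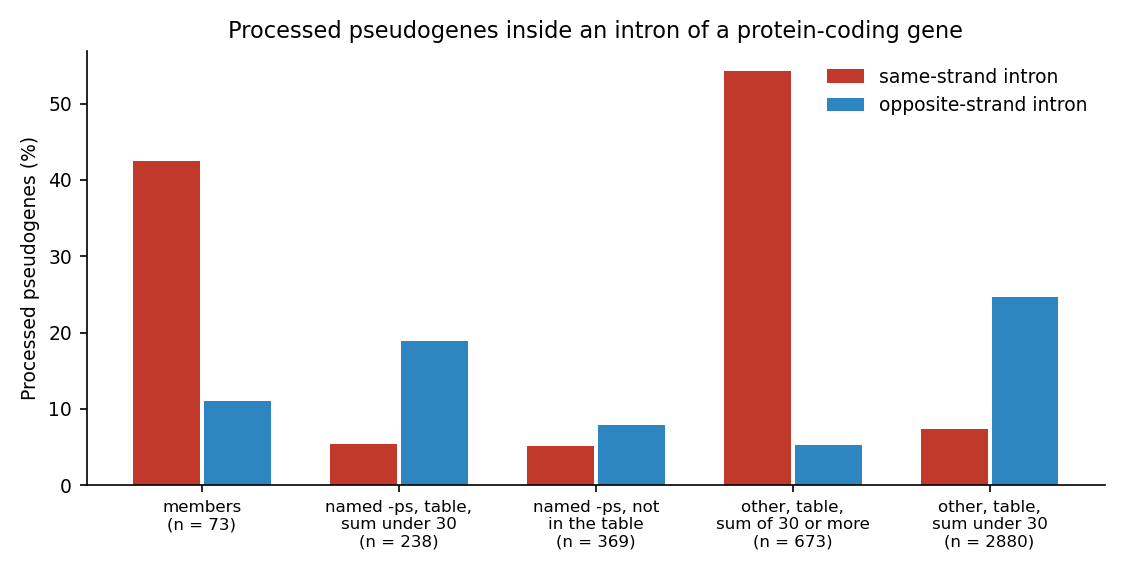
Share of processed pseudogenes (vertical axis, %) that lie in an intron of a protein-coding gene on the same strand (red) or on the opposite strand (blue), for 5 sets given along the horizontal axis with their numbers. Same-strand introns hold 42.5% of the members and 54.2% of the other processed pseudogenes with at least 30 counts, against 5.15% to 7.43% of the 3 remaining sets.

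Over all members, whatever their kind, 33 lay in a same-strand intron, 50 in no protein-coding host, 9 in an opposite-strand intron, 10 over an exon of a gene on the other strand and 4 over an exon on their own strand. Those in a same-strand intron were listed at a median of 1.49 FPKM (a level per transcript length and library size, as the authors give it), against 0.589 for those with no host and 0.525 for those in an opposite-strand intron. They were also shorter, with a median exonic length of 480 bases against 872 for those with no host. Since the rule asks for at least 30 counts, a shorter member needs a higher FPKM to be included. These FPKM medians therefore depend in part on length and on the rule. A same-strand intronic member had a median level of 19.9% of its host's FPKM, over 32 with a counted host, with a range from 2.96% to 1685%. Gstp-ps stood at the upper end. It is a copy 99.2% identical to Gstp2, a glutathione S-transferase of the pi class, and lies in an intron of Traf5, an adaptor of tumour necrosis factor receptors. Its FPKM was 12.5, 10.6 and 9.49 in saline libraries 1 to 3 and 11.9, 10.4 and 9.497 in morphine libraries 1 to 3, against a mean of 0.636 for Traf5. The groups overlapped fully.

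Members spanned more than 2 orders of magnitude in level. Mean FPKM over the 6 libraries ran from 0.0621 to 19.8 with a median of 0.846, and summed counts from 30 to 9193 with a median of 66. The highest were Tmem250-ps at 19.8 FPKM, annotated as a long intergenic RNA, and Tmem181b-ps at 17.9 FPKM, an unprocessed pseudogene with 17 exon blocks. Tmem250-ps overlaps an exon of 1810012K08Rik on the other strand and Ndufb1-ps (8.59 FPKM) one of Cpsf2, a gene of messenger RNA 3' end processing. Without the strand setting, reads of such overlapping genes cannot be told apart. Tmem181b-ps shares a run of 454 identical bases with Tmem181a. The 12 members of highest summed count included 1 processed pseudogene, Gstp-ps.

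Set beside their parents, members stood low on the FPKM scale as a rule. Over the 74 pairs, the member's level was a median of 4.67% of the parent's, and for the 32 copies of ribosomal protein genes 2.99%, with a range from 0.392% to 34.3%. In 10 pairs it was under 1%. Copies with full identity stood at different levels. Pgam1-ps2, identical over all its 765 bases to Pgam1, a glycolytic phosphoglycerate mutase, was listed at 0.346 FPKM against 124 for the parent, or 0.278%. Rpl31-ps8, identical over its 378 bases, had 5.71 FPKM against 28.5, or 19.99%. Its counts were 54, 42 and 40 in saline libraries 1 to 3 and 52, 27 and 52 in morphine libraries 1 to 3. The groups overlapped, with the lowest of the 6 counts in morphine library 2.

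In 11 pairs the member was listed higher than the parent, for which the rule set no minimum count. For some the parent is a gene of another tissue and was near 0 here. Nlrp5, known from the oocyte, was at 0.00792 FPKM and Nlrp5-ps at 1.23. Gpx2, a glutathione peroxidase of the gut epithelium, was at 0.0413 FPKM and Gpx2-ps1, in an intron of Pgm2l1, at 3.04. Pgm2l1 itself, an enzyme that makes glucose 1,6-bisphosphate, was at 103 FPKM, so that Gpx2-ps1 reached 2.96% of its host. Tdgf1-ps2 (1.45 FPKM) copies the gene of the embryonic Nodal co-receptor Cripto, at 0.0610, and lies in an intron of Agpat4. C4bp-ps1, named for a complement regulator, was at 0.714 FPKM against 0.0207 for its parent, and Mageb16-ps1 at 0.502 against 0.112. Nlrp5-ps and C4bp-ps1 overlap exons of other genes on their own strand.

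For others the parent was present too, and the member stood at 104.5% to 309% of its FPKM. Pisd encodes the mitochondrial enzyme that makes phosphatidylethanolamine from phosphatidylserine. Pisd-ps1 was at 8.34 FPKM and Pisd-ps2 at 3.21, against 2.70 for Pisd. Their identities to Pisd were 94.1% and 96.3% over the aligned parts, with longest identical runs of 97 and 139 bases. Gpr137b-ps, a copy of a lysosomal membrane protein gene, was at 2.83 FPKM against 2.71 for Gpr137b. It shares an identical run of 517 bases with that gene. Zcchc9-ps was at 2.59 against 2.37 for Zcchc9, with no identical run over 30 bases. Bambi-ps1, a copy of a decoy receptor of the transforming growth factor beta family, was at 0.752 against 0.444. Gstm2-ps1 was at 0.420 against 0.345 for Gstm2, though its closest match was Gstm1.

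**Figure D2:**
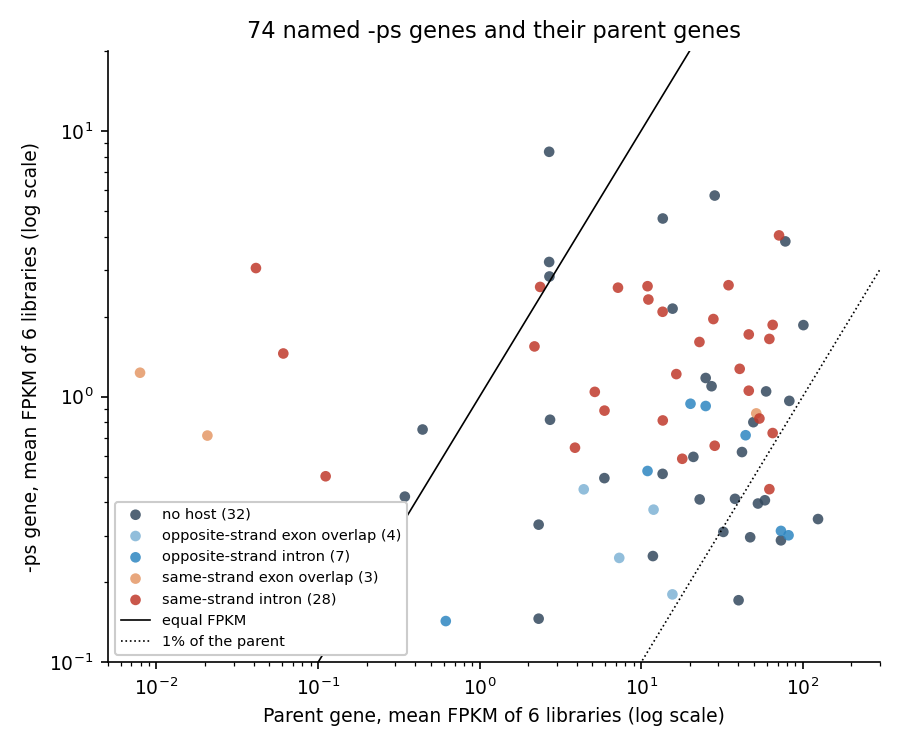
Mean FPKM over 6 libraries of each of 74 members (vertical log axis) against that of the gene named before -ps (horizontal log axis), coloured by position relative to other genes. The solid line is equal FPKM, with 11 members above it, and the dotted line is 1% of the parent, with 10 members below it; the members' median is 4.67% of the parent.

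The comparison of morphine with saline asked which members differed after training with the drug. It was made on the counts with edgeR's quasi-likelihood F test, two-sided, for the 18970 genes that reached 10 counts in 3 or more libraries. Of the 106 members 68 passed this filter and 38 did not. No member reached an adjusted p under 0.05 in edgeR (Benjamini-Hochberg over all genes tested), as did 0 genes in all (0%), and the lowest adjusted p of a member was 0.616. At an unadjusted p under 0.05, 4 members were lower in morphine and 0 higher, against 4.96% and 2.77% of all genes tested. DESeq2 on the same 68 gave 0 in either direction at that unadjusted p, against 3.13% of all genes tested lower and 2% higher. It gave an adjusted p to 37 of the 68, none of them under 0.05, against 0.0935% of all genes with one; H2-M6-ps, Rpl30-ps9 and Mageb16-ps1 were among the 31 members without. At the thresholds the study sets for long non-coding RNAs, a fold over 1.5 with an unadjusted p under 0.05, 3 members were lower and 0 higher, against a background of 1.83% lower and 0.554% higher. Of 573 other annotated pseudogenes tested, 34 were lower and 3 higher at these thresholds. The median standard error of their log2 fold changes was 0.327. It was 0.318 for the tested members and 0.129 over all genes tested. The 3 members have low counts, and leaving out saline library 2 took the number past both thresholds to 0. The number was 1 without saline library 3, morphine library 1 or morphine library 3, and 3 without saline library 1. Without morphine library 2, H2-M6-ps (log2 fold change -1.42) and Mageb16-ps1 (-1.37) passed both. The members behind these numbers changed. Without saline library 1 they were H2-M6-ps, Mageb16-ps1 and Rps12-ps26, without Rpl30-ps9. Without morphine library 1 the only one was Nlrp1c-ps, which did not pass with all libraries.

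H2-M6-ps, an unprocessed pseudogene of the class I major histocompatibility complex, was the member of lowest p. Its counts were 18, 22 and 14 in saline libraries 1 to 3 and 3, 9 and 10 in morphine libraries 1 to 3. All 3 morphine libraries lay below all saline ones. The mean was 0.843 ± 0.171 CPM in saline and 0.365 ± 0.175 in morphine (SD, n = 3 each), a log2 fold change of -1.18 (SE 0.42, 95% interval -2.11 to -0.25, edgeR adjusted p = 0.616). Its closest protein-coding match, H2-Q10, was 71.1% identical with no run over 27 bases. The unadjusted p rose over 0.05 without saline library 2 and without morphine library 1, where the log2 fold change was -0.86.

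Zcchc9-ps lies in an intron of Macrod2, a gene of a hydrolase that removes ADP-ribose from proteins. Its counts were 58, 50 and 45 in saline and 33, 33 and 32 in morphine. The saline libraries were all higher, and the groups did not overlap. Its mean was 2.39 ± 0.104 CPM in saline and 1.68 ± 0.253 in morphine (SD, n = 3 each), a log2 fold change of -0.52 (SE 0.21, 95% interval -0.99 to -0.04, edgeR adjusted p = 0.619). The host Macrod2 had a log2 fold change of 0.00 (SE 0.05) and the parent Zcchc9 one of 0.07 (SE 0.13). Fau-ps1, the other member inside Macrod2, had -0.22, and 0.16 without saline library 1. Without morphine library 3 the value for Zcchc9-ps was -0.39, and its unadjusted p was over 0.05 there and without any 1 of the saline libraries.

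Rpl30-ps9, with 1 differing base in the window above and 2 over its 345 bases, had counts of 20, 18 and 21 in saline and 11, 11 and 10 in morphine. These groups did not overlap either. The mean was 0.928 ± 0.126 CPM in saline and 0.549 ± 0.101 in morphine (SD, n = 3 each), a log2 fold change of -0.76 (SE 0.33, 95% interval -1.49 to -0.04, edgeR adjusted p = 0.630). The parent Rpl30 had a log2 fold change of -0.07 (SE 0.08). The unadjusted p of Rpl30-ps9 was over 0.05 in edgeR whichever library was left out, with log2 fold changes from -0.84 to -0.60.

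Mageb16-ps1, on the X chromosome in an intron of the cation channel gene Trpc5, had counts of 12, 19 and 17 in saline and 3, 10 and 9 in morphine. The groups overlapped in level, since saline library 1 lay below morphine library 2. The mean was 0.761 ± 0.211 CPM in saline and 0.369 ± 0.194 in morphine (SD, n = 3 each), a log2 fold change of -1.02 (SE 0.45, 95% interval -2.02 to -0.01, edgeR adjusted p = 0.638). The host Trpc5 had 0.01 (SE 0.08). Without saline library 1 the value for Mageb16-ps1 was -1.24, and without morphine library 1 it was -0.70, with an unadjusted p over 0.05. The same loss came without saline library 2, saline library 3 or morphine library 3.

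Rps15a-ps6, in an intron of Nudcd3, just missed the unadjusted threshold. Its counts were 28, 19 and 18 in saline and 13, 11 and 13 in morphine, and the groups did not overlap. The log2 fold change was -0.69 (SE 0.31, 95% interval -1.38 to 0.00, edgeR adjusted p = 0.638), against -0.07 (SE 0.07) for the parent Rps15a and 0.09 (SE 0.06) for the host. Without saline library 1, the highest of the 6, it was -0.53.

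**Figure D3:**
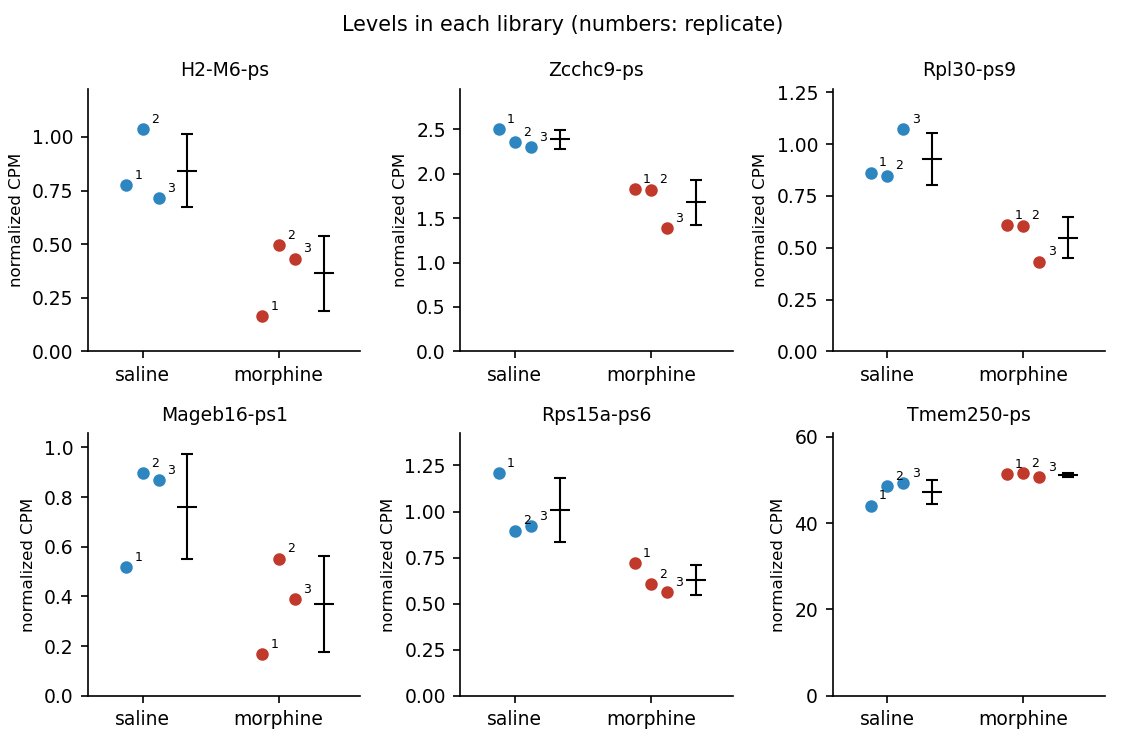
Normalized CPM (vertical axes, from 0) of 6 members in each library, with the replicate number beside each point and the mean and SD of each group (n = 3) in black. Morphine libraries (red) lie below all saline libraries (blue) for H2-M6-ps, Zcchc9-ps, Rpl30-ps9 and Rps15a-ps6, the groups overlap for Mageb16-ps1, and the morphine libraries of Tmem250-ps lie just above the saline ones.

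Groups that did not overlap were few on either side. Among the 68 tested members there were 6 such members lower in morphine, against 7.32% of all genes tested, and 2 higher, against 5.98%. Beside the 4 above, those lower were Ldha-ps2, a copy of lactate dehydrogenase A, at a log2 fold change of -0.53 (SE 0.30), and Cdk3-ps, a polymorphic pseudogene of a cyclin-dependent kinase, at -0.44 (SE 0.33). Cdk3-ps was named after its values were seen. Neither passed the unadjusted threshold. Of the 38 untested members, Casp16-ps, Mipep-ps and Rps15a-ps4 were lower and Fgfr3-ps and Gpx4-ps2 higher without overlap, at counts under the filter. The shares above cover tested genes only, so they are no background for these untested members. The 2 tested members that were higher were Tmem250-ps and Slc22a13b-ps. Tmem250-ps was at 44.0, 48.5 and 49.2 CPM in saline and 51.4, 51.5 and 50.6 in morphine. The morphine libraries were all above the saline ones by a narrow margin, with a log2 fold change of 0.12 (SE 0.06, edgeR adjusted p = 0.675), or 0.07 without saline library 1. Slc22a13b-ps, a polymorphic pseudogene of an organic ion transporter family, had 0.30 (SE 0.21, edgeR adjusted p = 0.722).

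The largest positive values had wide intervals. Atp6v0c-ps2, a copy of the proton channel subunit of the vacuolar ATPase with 1 mismatch to its parent, was at 0.259, 0.471 and 0.409 CPM in saline and 0.166, 0.883 and 0.736 in morphine. Morphine library 1 was the lowest of all 6, and morphine libraries 2 and 3 the highest. Its log2 fold change was 0.67 (95% interval -0.55 to 1.88), and without morphine library 1 it was 1.08, past the unadjusted threshold in edgeR. Rpsa-ps10 and Rps27a-ps1, copies of small ribosomal subunit genes, had 0.43 (-0.80 to 1.65) and 0.38 (-0.63 to 1.39). Without saline library 1 the value of Rps27a-ps1 was 0.07, and Rpsa-ps10 did not pass the filter. Dynlt1-ps1, whose annotated transcript is identical to part of Dynlt1c, had 0.35 (-0.28 to 0.97), and the zinc finger pseudogene Zfp133-ps 0.24 (-0.29 to 0.78).

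On the lower side, Nlrp1c-ps, an inflammasome sensor pseudogene, had -0.54 (-1.14 to 0.07). Rps12-ps26 had -0.84 (-1.93 to 0.24), with saline library 1 at 0.388 CPM between the morphine libraries at 0.332, 0.607 and 0.216. Both intervals include 0. Leaving out 1 library brought each past the unadjusted threshold in edgeR, Rps12-ps26 at -1.14 without saline library 1 and Nlrp1c-ps at -0.79 without morphine library 1.

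The 12 members of highest count are given with their intervals. Tmem181b-ps was at 63.3, 84.1 and 81.4 CPM in saline and 67.3, 84.9 and 69.0 in morphine. Each group held both low and high libraries, and the log2 fold change was -0.05 (95% interval -0.30 to 0.21). Saline library 1 was the lowest of the 6, and without it the value was -0.17 (SE 0.08), past the unadjusted threshold in edgeR. Ppp4r1l-ps, a pseudogene of a phosphatase regulatory subunit, had -0.15 (-0.39 to 0.08) and Gpr137b-ps -0.18 (-0.42 to 0.06). Pisd-ps1 had 0.06 (-0.23 to 0.35) and Pisd-ps2 -0.13 (-0.53 to 0.28), beside 0.01 (SE 0.11) for Pisd. For the zinc finger pseudogene Zfp862-ps it was -0.02 (-0.28 to 0.23), for the ubiquitin-conjugating enzyme pseudogene Ube2d-ps 0.09 (-0.22 to 0.39), and for Ndufb1-ps, named for a complex I subunit, 0.11 (-0.20 to 0.42). Gstp-ps had -0.02 (-0.35 to 0.31), Slc2a4rg-ps -0.25 (-0.71 to 0.21) and Nlrp5-ps 0.18 (-0.51 to 0.87). All of these intervals but those of Slc2a4rg-ps and Nlrp5-ps exclude a change of 1.5-fold in either direction. Without saline library 1 the values were -0.11 for Gpr137b-ps, -0.03 for Pisd-ps2, 0.04 for Zfp862-ps, -0.02 for Ube2d-ps, 0.08 for Gstp-ps and 0.475 for Nlrp5-ps. The unadjusted threshold was also passed by Gpr137b-ps at -0.26 without saline library 2, and by Ppp4r1l-ps at -0.26 and Slc2a4rg-ps at -0.47 without morphine library 2.

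**Figure D4:**
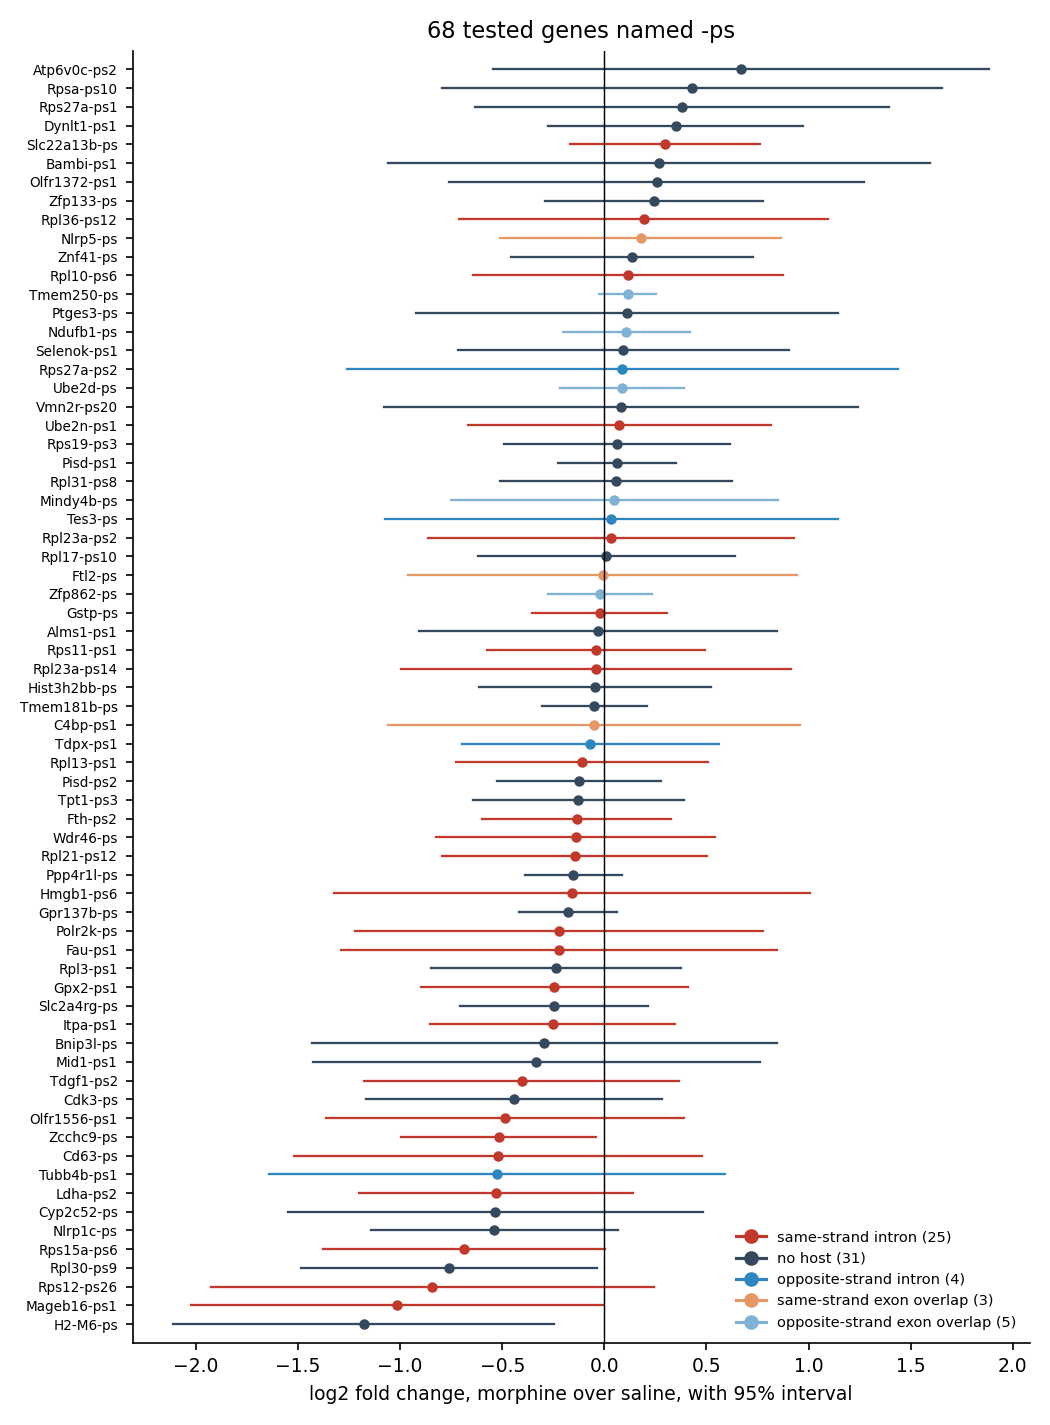
Log2 fold change of morphine over saline (horizontal axis) with its 95% interval from edgeR for each of the 68 tested members, sorted from highest (top) to lowest and coloured by position relative to other genes. The intervals of 4 members lie below 0 and none lies above it, and most members in a same-strand intron (20 of 25) have negative values.

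Over the 68 members that passed the filter, 41 log2 fold changes were negative and 27 positive, with a median of -0.05 beside -0.01 over all genes tested and 0.00 over protein-coding genes. These are descriptions of the members that passed and carry no test. With no filter the median of all 106 was -0.02, and without saline library 1 that of the tested members was -0.13. The 18 tested copies of ribosomal protein genes had a median of -0.01, with 9 values on each side of 0, beside 0.05 over the 83 tested cytoplasmic ribosomal protein genes themselves. The 9 tested copies of metabolic enzyme genes had -0.13. Of the 35 tested parents of tested members, 1 was lower and 0 were higher at an unadjusted p under 0.05 in edgeR, and their median was 0.04. That 1 was Alms1, a gene of the base of the cilium, at -0.20, while Alms1-ps1 had -0.03, or -0.19 without saline library 1.

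Members were also set side by side by position. The 25 tested members in a same-strand intron had a median of -0.16, with 20 of 25 negative. The 31 with no host had -0.03, with 16 of 31 negative. The same order was seen in pseudogenes without a -ps name, with -0.33 and 235 of 288 negative in same-strand introns and -0.06 and 115 of 200 negative with no host. The 31 host genes had a median of 0.00, and 20 of 24 intronic members lay below their own host's log2 fold change. By library, the 33 same-strand intronic members summed to 36.8, 40.8 and 38.9 CPM in saline and to 35.9, 35.4 and 32.1 in morphine. The groups did not overlap in this sum, though saline library 1 lay close to morphine library 1. The 625 other pseudogenes in same-strand introns summed to 456.8, 538 and 558.7 CPM in saline and to 403.8, 476 and 381.8 in morphine. Those groups overlapped, with morphine library 2 above saline library 1. The median deviation of the 25 tested members from their 6-library mean was -0.02, 0.24 and 0.12 (log2) in saline and -0.11, -0.11 and -0.07 in morphine. For the 288 other pseudogenes it was -0.002, 0.26 and 0.32 in saline and -0.17, 0.05 and -0.26 in morphine, with overlap.

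This order among the members was lost without saline library 2, where 13 of 22 tested same-strand intronic members were negative with a median of -0.06, and 15 of 28 with no host with a median of -0.08. For the other pseudogenes it was not lost there, with a median of -0.285 (207 of 273 negative) in same-strand introns and -0.05 (101 of 179) with no host. Without saline library 1 the median of the intronic members was -0.30, and over the leave-outs of the other 4 libraries it lay between -0.10 and -0.23. Mitochondrial share and summed marker levels of the libraries varied within both groups, and their part in these medians was not tested.

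**Figure D5:**
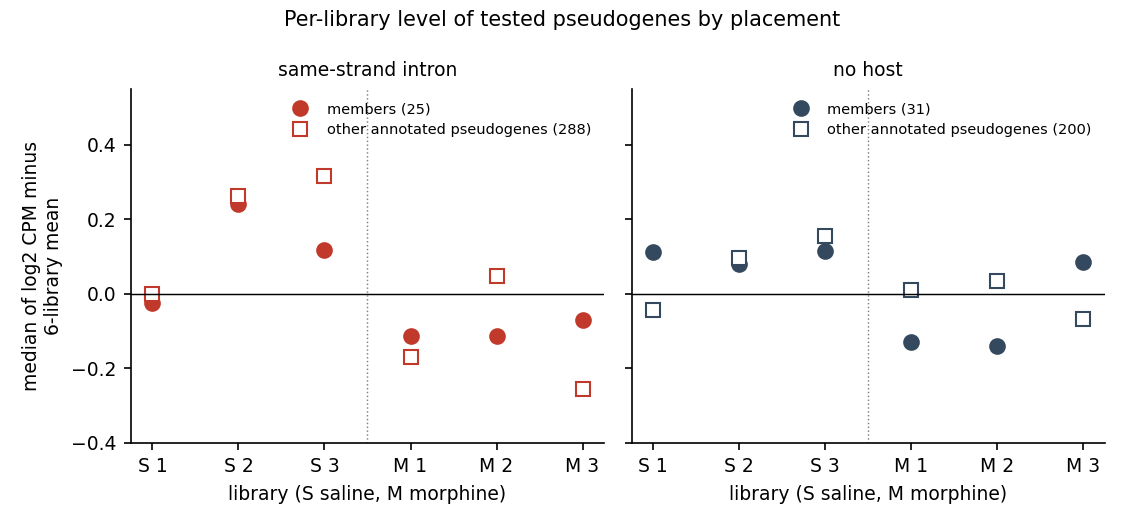
Median over tested pseudogenes of the log2 CPM minus the gene's 6-library mean (vertical axis) in each library, for those in a same-strand intron (left) and those with no host (right), with members as filled circles and other annotated pseudogenes as open squares. In same-strand introns the members' medians are 0.24 and 0.12 in saline libraries 2 and 3, -0.02 in saline library 1 and -0.11 to -0.07 in the morphine libraries. The groups overlap for the other pseudogenes there, with 0.05 in morphine library 2 and -0.002 in saline library 1.

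Comparing each member with its parent inside the same library removes the library size. For the 43 members that passed the filter and had a counted parent, the log2 ratio of member to parent count differed between groups by a median of -0.17 and was lower in morphine in 26. In 4 of the 43 pairs (9.3%) the groups did not overlap, all with lower ratios in morphine, beside 7.32% lower and 5.98% higher for the levels of all genes tested. They stood at the smallest p that an exact permutation test of 3 against 3 can give (two-sided p = 0.1, adjusted over the 43 pairs 0.992), so no pair is shown to differ. The 4 were Rpl30-ps9 at -0.67, Rps15a-ps6 at -0.59, Zcchc9-ps at -0.57 and Ldha-ps2 at -0.57. For Zcchc9-ps the log2 ratios were -1.62, -1.74 and -1.82 in saline and -2.05, -2.35 and -2.50 in morphine. For Ldha-ps2 they were -7.46, -7.04 and -7.64 in saline and -7.88, -7.77 and -8.22 in morphine. The parents Ldha and Zcchc9 both had 0.07 in the gene-wise comparison (SE 0.06 and 0.13). Ldha-ps2 lies in an intron of Ccdc30, which had -0.09 (SE 0.12).

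Some ratios moved widely within a group, where the parent (Nlrp5, 5 counts in all) or the member (Bambi-ps1, 56 counts in all) had few counts. For Nlrp5-ps they were 5.15, 7.93 and 6.57 in saline and 6.38, 7.45 and 7.97 in morphine, and for Bambi-ps1 -5.03, -1.24 and -1.63 in saline and -2.08, -2.77 and -1.16 in morphine. In saline library 1 Bambi was at 4.92 CPM, against 1.37 to 2.04 in the other libraries, while Bambi-ps1 was at 0.129 CPM, the lowest of its 6 values.

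At the edge of the rule, Rps2-ps6 and Scp2-ps2 had summed counts of 31 and Rpl27-ps1 of 30. Amd-ps3, Rps23-ps1 and Slc25a5-ps had 29 each and were left out.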

How the data were processed

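The authors made strand-keeping libraries from RNA depleted of ribosomal RNA and sequenced them as 150-base paired reads, and their notes list HTSeq 0.11.2, HISAT2 2.1.0, StringTie 1.3.3, cutadapt 1.9.3, limma 3.40.6, DESeq 1.8.3, DESeq2 1.26.0 and the build mm10. The deposited table holds a whole-number count per gene and library, not normalized, and an FPKM value, which the authors scaled by gene length and library size. Groups and replicate numbers came from the sample titles.

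Of 31763 gene identifiers, 31748 matched GENCODE M21, which gave gene types, positions and transcripts. Members were the genes whose name ends in -ps or -ps and digits with a summed count of at least 30. The members and lists were chosen with earlier results of these data known. Counts were scaled by TMM factors, and edgeR 4.0.16 (R 4.3.3) was run on the genes that reached 10 counts in 3 or more libraries, with group as the only term. The study's methods name DEGseq for its own comparison, which was not used here. The fit was tested on simulated data. The alternatives were each library left out, a block for the replicate number, no filter, a filter of 10 counts in each of the 6 libraries, RLE factors, DESeq2 1.42.0, and limma 3.58.1 on log2(FPKM + 0.1), with and without its filter, and on log2(FPKM + 1). Member transcripts were aligned to protein-coding transcripts with BLAST+ 2.17.0. The member to parent ratio used counts plus 0.5, tested by exact permutation; its alternatives were added after the data had been seen. Named were the 12 members of highest summed count, up to 10 on each side of lowest p, up to 10 listed above their parent and those next to the threshold, with parents; hosts and members named for sequence or position were added after their values were seen. Libraries of the same group differed by more than sampling noise in every pair (chi-square of 2.91 to 14.7 per degree of freedom, for genes reaching 20 counts).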

Additional observations from a re-analysis of the deposited data

How the results depend on the processing

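No alternative gave a member with an adjusted p under 0.05, whereas over all genes there were 279 with no filter, 186 without saline replicate 1 and 16 with DESeq2, which gave 31 of the 68 tested members no adjusted p. No member with an unadjusted p under 0.05 changed sign under any alternative. The count of members past a fold of 1.5 and an unadjusted p of 0.05 that were lower in morphine was 3 of 68 tested in edgeR and 0 of 68 with DESeq2. It was 8 with limma on log2(FPKM + 0.1), of 105 tested with its filter and 106 without. On log2(FPKM + 1), a scale that shrinks the fold of low genes, it was 0 of 105. Leaving out each library in turn gave 0 to 3. The count of those higher (0) was 1 with no low-count filter and 2 with limma on log2(FPKM + 0.1) with or without its filter, and 0 to 1 over the left-out libraries, at 1 without morphine replicate 1. Shares over all genes at both thresholds are not given for these alternatives, so these counts stand without a background. At an unadjusted p under 0.05 alone, limma on log2(FPKM + 0.1) with its filter had 10 members lower and 2 higher. Over all 22628 genes it tested, 994 were lower and 594 higher. By that p alone, edgeR with no filter had 2 of 106 members lower and 1 higher, against 1638 and 861 of 31763 genes. The median log2 fold change of tested members (-0.05) lay between -0.133 without saline replicate 1 and -0.0219 without morphine replicate 2 over the left-out libraries, and was -0.0215 with limma on log2(FPKM + 1). The median difference of the member to parent ratio (-0.17) was -0.049 with no filter, over 74 pairs, and -0.227 to -0.0954 over the left-out libraries. With the replicate number as a block, 2 members were lower and 0 higher, with a median of -0.056. Same-numbered libraries deviated together with correlations of 0.0153, 0.00133 and -0.0211, so that the numbers are not taken to pair the samples. Of 393 values of 30 named members under alternatives, 336 kept their sign and their side of the threshold, 24 lost it, 13 gained it and 20 uncalled values changed sign. All 24 losses came from the 4 members with an unadjusted p under 0.05 in edgeR, since no other member could lose a call. The 336 include values of members that had no call to lose. Low counts limit these comparisons, since the standard error of a tested member's log2 fold change had a median of 0.318, against 0.129 over all genes tested.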
